A study of Mus musculus with 24 samples.

Results

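The comparison set subcutaneous adipose tissue of mice after 1 week on a high-fat diet against the same tissue after 1 day on that diet. Its members were the 4 libraries titled high-fat week 1 and the 4 titled high-fat day 1, which are 8 of the 24 libraries of the series, with every mature microRNA (miRNA) in the count table. The whole study measured small RNA from the fat under the skin of mice fed with control or high-fat chow, sampled at day 1, at week 1 and at week 3, and its title reports lower DICER on the high-fat diet. Both groups compared here received the high-fat diet, so the contrast describes time on that diet together with anything else that differed between the collection days. The 8 control-diet libraries of day 1 and week 1 served as the background for passing time. The sources used here do not give the strain, sex or age of the mice or the fat content of the diets. The labels do not tell whether each library is a different mouse. The spread behind every p-value may therefore be technical.

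A miRNA is cut from the stem of a hairpin precursor, first by Drosha in the nucleus and then by DICER in the cytoplasm, and 1 arm of the stem is usually kept by an Argonaute protein. The loaded strand finds messenger RNAs mainly through its seed, bases 2 to 8 from the 5′ end, and lowers their translation and stability. Adipose tissue mixes adipocytes with fibroblasts, vessels and immune cells, and many miRNAs are strongly enriched in 1 of these cell types. Less RNA from a cell type and fewer cells of that type cannot be told apart in such bulk samples.

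The mature sequences below belong to miRNAs on which the results turn, with the seed in capitals. They are RefSeq sequences on the GRCm38.p6 assembly, in which 489 of the 558 tested miRNAs found a match. MiR-143-5p, miR-150-5p and miR-1a-3p, named below, are among those without a match and are not printed. The first 6 share the seed AAAGUGC and come from 3 related clusters, that of Mir17hg on chromosome 14 (miR-17 and miR-20a), that of the X chromosome (miR-20b and miR-106a) and that of Mcm7 on chromosome 5 (miR-93 and miR-106b).
miR-20b-5p: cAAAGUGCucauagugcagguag
miR-106a-5p: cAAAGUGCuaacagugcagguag
miR-17-5p: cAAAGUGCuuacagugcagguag
miR-20a-5p: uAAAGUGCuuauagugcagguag
miR-106b-5p: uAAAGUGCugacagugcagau
miR-93-5p: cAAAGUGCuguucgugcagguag

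The next set is miRNAs known from leukocytes, which carry unrelated seeds. Both arms of the miR-142a hairpin (chr11:87756864-87756927, plus strand, intron of Mir142hg) are shown because both were abundant.
miR-142a-3p: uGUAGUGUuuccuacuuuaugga
miR-142a-5p: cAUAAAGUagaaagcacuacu
miR-155-5p: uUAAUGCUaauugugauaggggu
miR-146a-5p: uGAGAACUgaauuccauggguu
miR-342-3p: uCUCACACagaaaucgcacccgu

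The remaining sequences belong to single miRNAs with small p-values, lower at week 1 in the first 5 lines and higher in the last 4. The last 2 share the let-7 seed GAGGUAG.
miR-340-5p: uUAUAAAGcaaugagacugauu
miR-7a-5p: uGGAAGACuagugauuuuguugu
miR-15b-5p: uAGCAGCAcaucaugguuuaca
miR-16-2-3p: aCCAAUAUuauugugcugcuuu
miR-20a-3p: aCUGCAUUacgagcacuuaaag
miR-199a-3p: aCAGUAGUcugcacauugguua
miR-411-5p: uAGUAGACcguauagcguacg
let-7d-5p: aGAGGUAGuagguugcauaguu
let-7b-5p: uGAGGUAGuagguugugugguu

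The 8 libraries held 1.99 to 5.28 M counts (M, mega), and totals did not separate the times. Mean totals were 4.05 ± 1.495 M (SD, n = 4) at day 1 and 3.56 ± 0.760 M at week 1, a difference of -0.035 in log10 total (exact two-sided permutation p 0.8, where 0.0286 is the smallest that 4 against 4 allows). MiRNAs detected with at least 1 count numbered 861 ± 62.8 at day 1 and 854 ± 66.6 at week 1 (exact two-sided permutation p 0.714). A count of 3 corresponded to between 0.526 and 1.48 CPM (counts scaled to 1 M after TMM normalization), taken as the counting floor. Floors and count-based limits cover counting error only. Replicate 2 of week 1 stood apart from the other 7 libraries in skeletal muscle miRNAs, which summed to 81031 CPM there. Several values below are also given without it.

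No miRNA passed an adjusted p of 0.05 in the comparison of week 1 with day 1. With the quasi-likelihood test of edgeR, 0 of 558 tested miRNAs passed (0%), and the smallest Benjamini-Hochberg adjusted p was 0.128. At an unadjusted p under 0.05 there were 115 miRNAs (20.6%), against 27.9 under a uniform distribution of p. Of these, 62 were higher (11.1%) and 53 were lower (9.5%) at week 1, and 2 of the higher ones were skeletal muscle miRNAs. Without the skeletal muscle miRNAs in the table, which also changed the scaling, the split was 39 higher and 77 lower. It was 54 and 58 with RLE size factors, 47 and 60 with TMM without the 5 most abundant miRNAs, and 64 and 46 with library totals alone. The median log2 fold change of all 558 was 0.08, and 80 miRNAs had an absolute log2 fold change above 1. The 95% interval lay within 2-fold for 269 miRNAs (48.2%), and reached beyond 2-fold for the others.

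The outcome differed between testing tools. DESeq2 called 32 miRNAs (15 higher, 17 lower) and limma-voom (weighted by sample quality) called 39 (20 higher, 19 lower) at an adjusted p under 0.05 on the same counts. Both tools called 22 names, 68.75% of the DESeq2 calls and 56.41% of the limma-voom calls. The 8 higher at week 1 were miR-143-5p, miR-199a-3p, let-7b-5p, let-7d-5p, miR-411-5p, miR-200a-3p, miR-210-3p and miR-222-3p. The 14 lower were miR-142a-3p, miR-142a-5p, miR-150-5p, miR-155-5p, miR-146a-5p, miR-342-3p, miR-20b-5p, miR-363-3p, miR-340-5p, miR-7a-5p, miR-15b-5p, miR-186-5p, miR-191-5p and miR-423-5p. With edgeR, 4 miRNAs passed without week 1 replicate 2, all of them higher at week 1: miR-199a-3p, miR-143-5p, miR-200a-3p and miR-182-3p (edgeR adjusted p 0.0497 each). MiR-182-3p held only 35 counts in all over the 8 libraries, near the counting floor. All edgeR values below come from the fit with every library, in which none passed.

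The most abundant miRNAs of the tissue stayed within a narrow range of fold changes. Across the 10 with the highest mean CPM, log2 fold changes ran from -0.34 for miR-21a-5p, associated with inflammation, to 0.27 for miR-99a-5p. MiR-148a-3p, the adipocyte-enriched miRNA that ranked first, was at 138757, 168273, 231813 and 176441 CPM in the 4 day 1 libraries and at 150683, 107548, 147473 and 179487 CPM at week 1. These ranges overlap, and the log2 fold change was -0.29 ± 0.25 (SE). Endothelial miR-126a-3p had 0.20 ± 0.15 and miR-143-3p, abundant in smooth muscle and pericytes, had -0.28 ± 0.23. The 8 tested arms of the adipocyte marker list, with miR-148a, miR-378a, miR-193b and miR-335, divided evenly into 4 higher and 4 lower (median log2 fold change 0.06, or -0.04 without the skeletal muscle miRNAs in the table). The mean log2 CPM of that list ran from 8.17 to 8.76 at day 1 and from 8.49 to 8.90 at week 1.

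**Figure D1:**
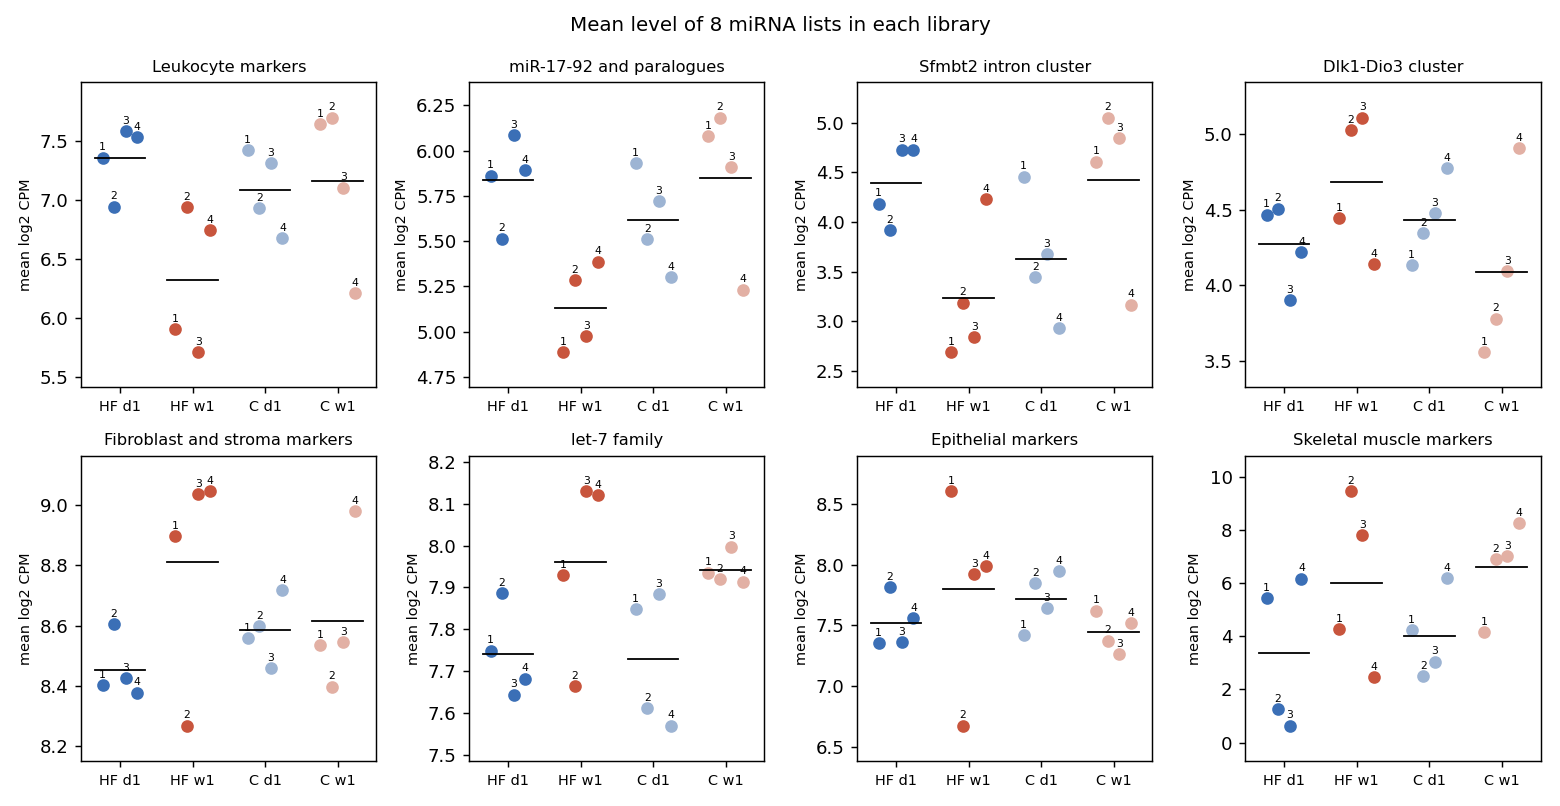
Mean log2 CPM (y axis) of the tested members of 8 lists in each library of day 1 and week 1; HF, high-fat diet, C, control diet, d1, day 1, w1, week 1; numbers are replicate numbers and lines are group means of 4. On the high-fat diet the leukocyte and miR-17-92 lists had all week 1 libraries below all day 1 libraries, the former narrowly, and the skeletal muscle markers reached 9.45 in week 1 replicate 2.

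Most leukocyte miRNAs had fold changes below 0, and none passed the adjusted threshold. Of 15 tested arms, 12 had a log2 fold change below 0, against 43.7% of all tested, and the median was -1.02, against 0.08 for all tested. An unadjusted p under 0.05 was found for 7, all lower (9.5% of all tested), and in 5 all week 1 libraries lay below all day 1 libraries (5.73% of all tested did so). The mean log2 CPM of the list was 7.36, 6.95, 7.58 and 7.53 in day 1 replicates 1 to 4, and 5.91, 6.94, 5.71 and 6.74 in week 1 replicates 1 to 4. Week 1 replicates 1 and 3 were thus the low libraries, while replicates 2 and 4 lay close to the lowest day 1 library. Leaving out week 1 replicate 2 moved the median to -1.43, with the same 3 higher and 12 lower arms by count.

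MiR-142a-3p, made across blood cell lineages, was at 10260, 6748, 18621 and 10776 CPM at day 1 and at 1109, 6198, 1133 and 3895 CPM at week 1. Its groups did not overlap, and the log2 fold change was -1.91 ± 0.62 (SE; edgeR adjusted p 0.128). The partner arm miR-142a-5p was at 12874, 7402, 16685 and 13493 CPM at day 1 and 1023, 6362, 1173 and 5742 CPM at week 1, with a log2 fold change of -1.82 ± 0.73. Both arms therefore showed the same low libraries, replicates 1 and 3 of week 1.

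MiR-150-5p, known from mature B and T cells, was at 5544 ± 1510 CPM (SD, n = 4) at day 1 and 1981 ± 1502 CPM at week 1, without overlap (-1.48 ± 0.58, SE). MiR-342-3p (chr12:108658620-108658718, plus strand, intron of Evl) was at 516 ± 127 CPM and 235 ± 91.4 CPM, also without overlap (-1.14 ± 0.40). MiR-155-5p, induced when lymphocytes and macrophages are activated, was at 677, 445, 1080 and 770 CPM at day 1 and 108, 478, 81.1 and 299 CPM at week 1. Its week 1 replicate 2 reached into the day 1 range, and the log2 fold change was -1.62 ± 0.63. MiR-146a-5p, which restrains NF-κB signalling, was at 7361, 5075, 8420 and 11589 CPM at day 1 and 2967, 4671, 2374 and 3955 CPM at week 1 (-1.22 ± 0.42), with no overlap.

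MiR-223-3p of neutrophils and monocytes was at 211 ± 28.2 CPM (SD, n = 4) at day 1 and 241 ± 21.996 CPM at week 1. Its log2 fold change was 0.19 ± 0.21 (SE). The other arm, miR-223-5p, had -0.15 ± 0.20. The arms of miR-511, found in an intron of the macrophage gene Mrc1, had 0.27 for miR-511-5p and 0.10 for miR-511-3p. MiR-223-3p and the arms of miR-511 were the only 3 arms of the list above 0, and miR-147-3p of the list was below 0. The list does not divide cleanly by cell type, since miR-155-5p is induced in macrophages as well. Whether the arms above 0 differ from the other members was not tested.

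**Figure D2:**
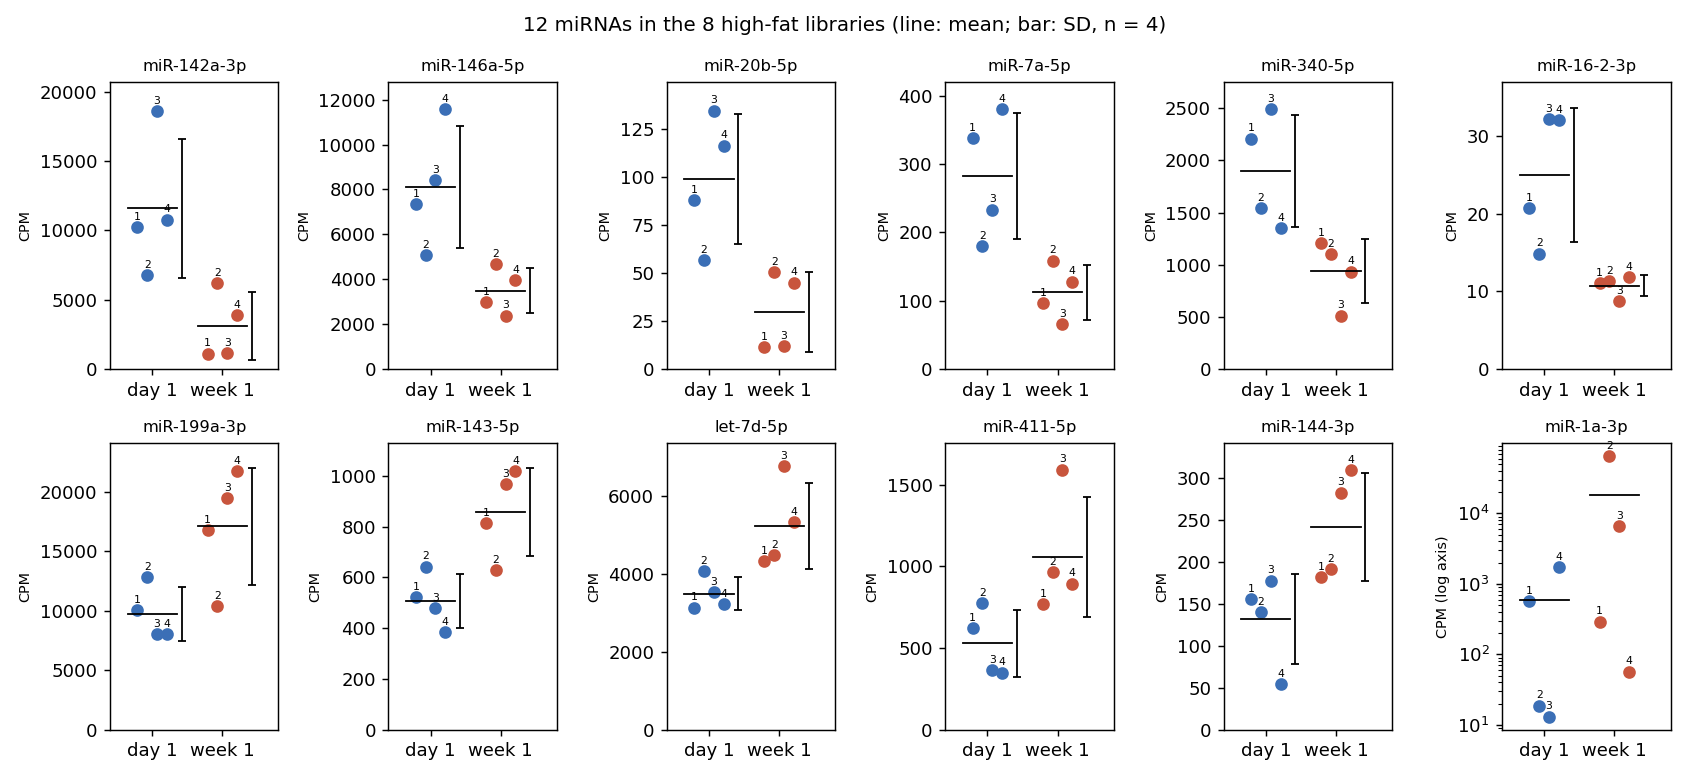
CPM (y axis; log axis for miR-1a-3p) of 12 miRNAs in the high-fat libraries of day 1 and week 1; points are libraries with their replicate numbers, lines are means and bars are SD (n = 4; not drawn for miR-1a-3p). MiR-142a-3p, miR-146a-5p, miR-20b-5p, miR-7a-5p, miR-340-5p and miR-16-2-3p had every week 1 library below every day 1 library, while miR-1a-3p spread from 56.8 to 65024 CPM within week 1.

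The miR-17-92 cluster and its paralogues, oncogenic miRNAs active in dividing lymphocytes and other cells, likewise had mostly fold changes below 0. Of 22 tested arms 20 had a log2 fold change below 0 (median -0.44), 10 had an unadjusted p under 0.05 (9.5% of all tested were lower at that p), and 5 did not overlap between the times (5.73% of all tested), all of them lower. The mean log2 CPM of the list ran from 5.51 to 6.08 at day 1 and from 4.89 to 5.39 at week 1. Without week 1 replicate 2 the counts were 21 lower of 23 and the median -0.50.

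The 6 miRNAs printed above with the seed AAAGUGC all had log2 fold changes below 0 (median -0.40), and those from the X chromosome had the lowest values. MiR-20b-5p (chrX:52742113-52742192, minus strand, intergenic) was at 88.1, 56.7, 135 and 116 CPM at day 1 and 11.3, 50.3, 11.7 and 44.9 CPM at week 1, a log2 fold change of -1.75 ± 0.60 (SE; edgeR adjusted p 0.135). Its groups did not overlap, and replicates 1 and 3 of week 1 were again the low ones. MiR-106a-5p of the same cluster was at 43.5, 22.8, 64.0 and 54.7 CPM at day 1 and 3.30, 21.8, 5.99 and 30.5 CPM at week 1 (-1.61 ± 0.68), with week 1 replicate 4 inside the day 1 range.

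From the same X-linked cluster, miR-363-3p, which carries the other seed AUUGCAC, had -1.46 ± 0.54 (SE). MiR-18b-5p of that cluster was at 1.93 to 2.47 CPM at day 1 and at 0 to 0.848 CPM at week 1, at or under the counting floor in all 4 week 1 libraries, so no fold is given. In contrast, the seed mates outside the X chromosome had smaller differences. MiR-17-5p and miR-20a-5p of Mir17hg had -0.46 ± 0.19 and -0.34 ± 0.21, and miR-106b-5p and miR-93-5p of Mcm7 had -0.23 ± 0.22 and -0.09 ± 0.14. MiR-25-3p, the third product of Mcm7, was at 2765 ± 315 CPM (SD, n = 4) at day 1 and 2078 ± 187 CPM at week 1, without overlap (-0.41 ± 0.19). MiR-92a-3p, which is encoded both in Mir17hg and on the X chromosome, had -0.31 ± 0.23. Reads of such near-identical paralogues may be divided between copies in a way the sources used here do not state, and the difference between clusters was not tested.

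MiR-20a-3p, the minor arm of the miR-20a hairpin, had the smallest p among the lower miRNAs. It was at 2.45, 4.95, 4.72 and 4.93 CPM at day 1 and 1.65, 0.853, 1.63 and 1.695 CPM at week 1, a log2 fold change of -1.54 ± 0.39 (SE; edgeR unadjusted p 0.000693, adjusted p 0.128). The groups did not overlap, and the lowest library held 4 counts. Its major arm miR-20a-5p differed less, as given above.

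Further lower miRNAs without overlap were miR-340-5p, miR-7a-5p, miR-16-2-3p, miR-450b-5p and miR-488-3p. MiR-340-5p (chr11:50069702-50069799, plus strand, intron of Rnf130) was at 2210, 1545, 2495 and 1351 CPM at day 1 and 1205, 1103, 511 and 934 CPM at week 1 (-1.02 ± 0.31, SE). MiR-7a-5p, known from endocrine and neural cells, was at 339, 180, 233 and 380 CPM at day 1 and 95.9, 158, 65.9 and 128 CPM at week 1 (-1.34 ± 0.42). MiR-488-3p, also of neural cells, stood at 6.23 ± 2.49 CPM (SD, n = 4) against 1.54 ± 0.341 CPM, only just above the counting floor at week 1. The neuron and endocrine list that holds both had 9 of 14 tested arms lower and 5 higher (median log2 fold change -0.21). MiR-450b-5p, from an X-linked cluster with miR-322, was at 23.1 ± 3.41 CPM and 13.4 ± 3.75 CPM.

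MiR-16-2-3p and miR-15b-5p lie in 1 intron of Smc4 on chromosome 3, a condensin gene used in dividing cells. MiR-16-2-3p was at 20.7, 14.9, 32.2 and 32.1 CPM at day 1 and 11.1, 11.3, 8.71 and 11.9 CPM at week 1, a log2 fold change of -1.21 ± 0.35 (SE). MiR-15b-5p was at 408, 274, 578 and 627 CPM and then 157, 252, 175 and 314 CPM (-1.07 ± 0.34), where only week 1 replicate 4 exceeded the lowest day 1 library.

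The Sfmbt2 intron cluster, found in rodents inside an imprinted gene, had 7 tested members, and all 7 had log2 fold changes below 0 (median -1.04), 4 of them with an unadjusted p under 0.05 (9.5% of all tested were lower at that p) and none without overlap (5.73% of all tested). MiR-467e-5p was at 60.6, 46.8, 95.9 and 76.4 CPM at day 1 and 19.8, 39.5, 20.7 and 57.2 CPM at week 1 (-1.04 ± 0.41, SE). Week 1 replicate 4 lay within the day 1 range, as it did for the list as a whole (mean log2 CPM 4.23, against 3.92 to 4.73 at day 1). The members of this cluster are near-identical to one another, so their counts are not independent. Without a filter on low counts, which adds further members near 0 counts, the median was -0.38.

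Replicates 1 and 3 of week 1 had the lowest levels of the 8 libraries in each of the leukocyte, miR-17-92 and Sfmbt2 lists. Week 1 replicate 2 of the Sfmbt2 list (3.19) and every week 1 library of the miR-17-92 list were below all of day 1 as well. With the mean levels of the leukocyte and skeletal muscle markers as covariates, a setting that takes up the leukocyte difference by construction, the median log2 fold change was 0.00 for the leukocyte list, 0.09 for the miR-17-92 list and 0.16 for the Sfmbt2 list. These values are no test of leukocyte content, whose part in the miR-17-92 and Sfmbt2 values was not tested.

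**Figure D3:**
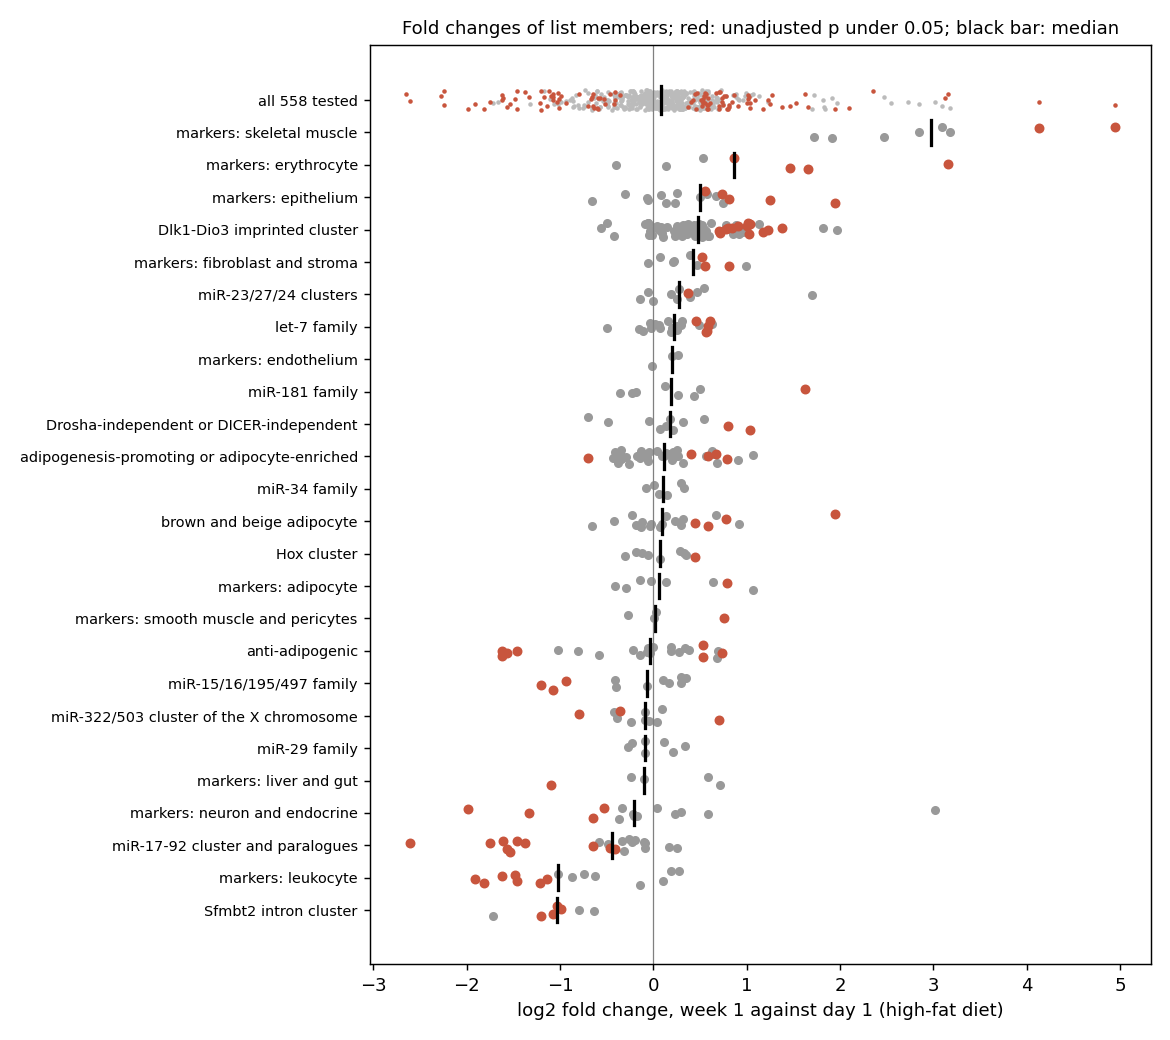
Log2 fold change of week 1 against day 1 on the high-fat diet (x axis) for each tested member of 25 lists and for all 558 tested miRNAs (top row); red points have an unadjusted p under 0.05 and black bars are medians. The medians ran from -1.04 in the Sfmbt2 intron cluster to 2.97 in the skeletal muscle markers, and the median of all tested was 0.08.

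The Dlk1-Dio3 cluster, a large imprinted cluster on chromosome 12 expressed from the maternal copy, had mostly fold changes above 0. Of 73 tested arms 63 had a log2 fold change above 0, against 56.3% of all tested, with a median of 0.48. An unadjusted p under 0.05 was found for 13, all higher (11.1% of all tested), and 3 did not overlap between the times (3.41% of all tested were higher without overlap). The mean log2 CPM of the cluster was 4.47, 4.51, 3.90 and 4.22 at day 1 and 4.45, 5.02, 5.11 and 4.14 at week 1. Replicates 2 and 3 of week 1 were the high libraries, and replicates 1 and 4 lay within the day 1 range. The median was 0.36 without week 1 replicate 2 (57 higher, 17 lower) and 0.27 without week 1 replicate 3. Without day 1 replicate 3 it was 0.29.

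MiR-411-5p (chr12:109710175-109710256, plus strand, intergenic) had the smallest p of the cluster. It was at 620, 777, 365 and 349 CPM at day 1 and 769, 964, 1593 and 895 CPM at week 1, a log2 fold change of 1.00 ± 0.30 (SE; edgeR adjusted p 0.128). Only week 1 replicate 1 lay below the highest day 1 library. MiR-369-5p of the same cluster had 1.03 ± 0.34, whereas the opposite arm miR-369-3p had 0.15 ± 0.28. The 2 most abundant members were less separated, with 0.51 ± 0.45 for miR-381-3p (0.18 without week 1 replicate 2) and 0.34 ± 0.32 for miR-379-5p (0.16 without day 1 replicate 3 and 0.02 without week 1 replicate 3). The libraries highest in this cluster were also the 2 highest in skeletal muscle markers, which stood at 9.45 and 7.81 (mean log2 CPM) in replicates 2 and 3 of week 1. At day 1 these markers stood at 5.43, 1.25, 0.63 and 6.17 in replicates 1 to 4. Of these, replicate 2 had the highest level of the cluster. Under the covariate setting described above, which takes up muscle differences by construction, the median of the cluster was -0.26. The part of muscle content in the cluster values was not tested.

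Skeletal muscle miRNAs were the list with the widest spread. All 8 tested arms had log2 fold changes above 0 (median 2.97). An unadjusted p under 0.05 was found for 2 (11.1% of all tested were higher at that p). None were without overlap (3.41% of all tested were higher without overlap). MiR-1a-3p, the main muscle miRNA, was at 575, 18.8, 13.1 and 1733 CPM at day 1 and 291, 65024, 6592 and 56.8 CPM at week 1. The log2 fold change of 4.95 ± 1.87 (SE; edgeR adjusted p 0.145) was 1.92 without week 1 replicate 2. MiR-206-3p, which is specific to skeletal muscle, was at 1378, 12.9, 5.79 and 917 CPM at day 1 and 795, 11895, 3886 and 56.8 CPM at week 1. Its log2 fold change was 2.85 ± 1.71, or 1.42 without week 1 replicate 2. Both miRNAs thus had high and low libraries at each time, and the list median without week 1 replicate 2 was 1.67.

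Stromal and let-7 miRNAs had mostly fold changes above 0, with list levels that overlapped between the times. MiR-199a-3p, abundant in fibroblasts and other mesenchymal cells, was at 10017, 12827, 8032 and 8037 CPM at day 1 and 16767, 10360, 19440 and 21742 CPM at week 1, a log2 fold change of 0.81 ± 0.21 (SE; edgeR adjusted p 0.128). Only week 1 replicate 2 lay within the day 1 range. In the fibroblast and stroma list as well replicate 2 was the low library of week 1, where it had a mean log2 CPM of 8.27 and the other 3 week 1 libraries 8.90 to 9.05, against 8.38 to 8.61 at day 1. Of that list 9 of 10 arms were above 0 (median 0.43, or 0.57 without week 1 replicate 2). The median was 0.21 without week 1 replicate 4, 0.27 without week 1 replicate 3, and 0.27 and 0.28 without day 1 replicates 3 and 4. MiR-143-5p, the minor arm of the smooth muscle hairpin, had the smallest p of all 558 miRNAs. It was at 522, 642, 479 and 386 CPM at day 1 and 814, 629, 969 and 1018 CPM at week 1 (0.76 ± 0.18; edgeR unadjusted p 0.000389, adjusted p 0.128), while its major arm miR-143-3p had a value below 0, as given above.

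Of the 5 higher miRNAs with the smallest p, 2 were near the counting floor. MiR-1968-5p was at 0.495 to 1.29 CPM at day 1, at or under the floor in 2 of the 4 libraries, and at 2.12 to 5.72 CPM at week 1. MiR-6956-3p was at 0.493 to 1.29 CPM and then 2.12 to 3.27 CPM. Neither overlapped between the times, and no fold is given for them.

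The let-7 family, which restrains proliferation and growth factor signalling, had 17 of 22 arms above 0 (median 0.22). Without day 1 replicate 3 the median was 0.10, close to that of all tested (0.08). Let-7d-5p (chr13:48536012-48536114, minus strand) was at 3132, 4076, 3529 and 3224 CPM at day 1 and 4327, 4488, 6756 and 5327 CPM at week 1, without overlap (0.58 ± 0.16, SE). Let-7b-5p was at 11504 ± 3188 CPM (SD, n = 4) and 17536 ± 4320 CPM (0.61 ± 0.20), with overlap. Their abundant seed mates let-7i-5p and let-7g-5p had -0.03 ± 0.17 and -0.04 ± 0.12. Of 9 miRNAs with the seed GAGGUAG, 7 had values above 0. Between control day 1 and week 1, 17 of the 22 arms of the family were above 0 as well (median 0.20).

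Of 17 epithelial arms 13 were above 0 (median 0.49), against 56.3% of all tested. An unadjusted p under 0.05 was found for 5, all higher (11.1% of all tested). None were without overlap (3.41% of all tested were higher without overlap). MiR-200a-3p, which maintains the epithelial state, was at 4501, 5816, 3488 and 3549 CPM at day 1 and 10476, 3407, 6325 and 10220 CPM at week 1 (0.81 ± 0.27, SE). Week 1 replicate 2 was below every day 1 library here, and it also had the lowest epithelial list mean of the 8 libraries (6.67). Week 1 replicate 1 had the highest (8.60), and without it the list median was -0.05. Without day 1 replicate 3 it was 0.25.

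Among red cell miRNAs, 6 of 7 arms were above 0 (median 0.87), against 56.3% of all tested. An unadjusted p under 0.05 was found for 4, all higher (11.1% of all tested). Groups did not overlap for 2 (3.41% of all tested were higher without overlap). The median was 0.52 without day 1 replicate 4, and 0.24 with the leukocyte and skeletal muscle covariates. MiR-144-3p was at 155, 140, 177 and 54.2 CPM at day 1 and 182, 191, 282 and 309 CPM at week 1, without overlap (0.87 ± 0.34, SE, or 0.52 without day 1 replicate 4). MiR-451a, which is made without DICER and lies beside miR-144 on chromosome 11, was at 1764 ± 671 CPM (SD, n = 4) and 1935 ± 359 CPM (0.13 ± 0.30). MiR-486a-5p, known from both red cells and muscle, was at 76.9 to 104 CPM at day 1 and at 90.3, 365, 418 and 96.6 CPM at week 1. Its high libraries, replicates 2 and 3, were those with the most skeletal muscle miRNA, and its reads cannot be separated from those of the near-identical miR-486b.

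Among miRNAs linked to fat cell formation, no direction prevailed. The adipogenesis-promoting or adipocyte-enriched list had 23 arms higher and 18 lower (median 0.12). The anti-adipogenic list had 10 higher and 14 lower (median -0.04), and the brown and beige adipocyte list had 12 higher and 9 lower (median 0.10). The signs of all 3 medians changed with single libraries left out. MiR-224-5p of the anti-adipogenic list was at 164, 169, 126 and 127 CPM at day 1 and 239, 207, 197 and 205 CPM at week 1 (0.53 ± 0.22, SE), without overlap.

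**Figure D4:**
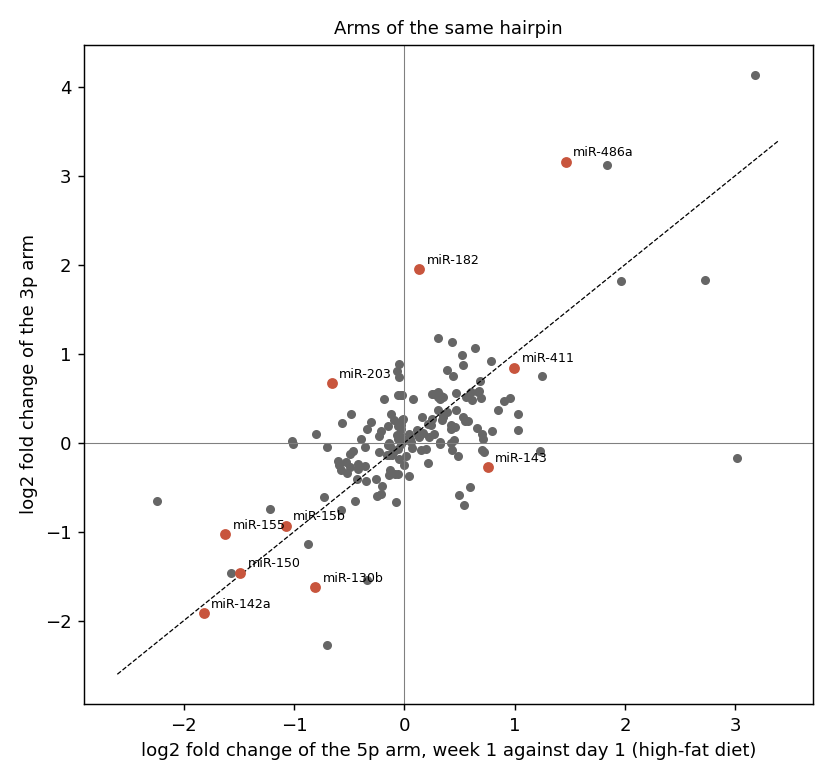
Log2 fold change of the 5p arm (x axis) and of the 3p arm (y axis) of the same hairpin, week 1 against day 1 on the high-fat diet, for 167 hairpins with both arms tested; the dashed line marks equality and red points are named. In 120 hairpins both arms had the same sign, miR-142a and miR-150 lay near the dashed line, and miR-182 and miR-143 lay away from it. The 3p arm of miR-182 held only 35 counts in all over the 8 libraries.

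Arms of 1 hairpin mostly had the same sign. Of 167 hairpins with both arms tested, 120 had arms of the same sign and 47 of opposite sign. The median absolute difference between arms was 0.28 on the log2 scale, against a median absolute log2 fold change of 0.36 over all tested miRNAs. Pearson r was 0.677 across hairpins, which share libraries and are not independent. The arms of miR-150 had -1.48 and -1.46, and those of miR-142a -1.82 and -1.91. In contrast, miR-340-5p had -1.02 and miR-340-3p 0.02, and the arms of miR-143 were 1.03 apart.

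The control-diet libraries gave the change over the same interval without high-fat feeding. Between control day 1 and week 1, 1 miRNA passed (0.179% of 558), miR-322-5p of an X-linked cluster that promotes cell cycle exit, which fell by 0.90 on the log2 scale (edgeR adjusted p 0.0118). On the high-fat diet miR-322-5p was at 292 ± 17.1 CPM (SD, n = 4) at day 1 and 228 ± 27.01 CPM at week 1, without overlap, a log2 fold change of -0.36 ± 0.17 (SE; edgeR adjusted p 0.225).

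The test of whether the time difference itself differed between the diets called 0 of 558 miRNAs (0%; edgeR smallest adjusted p 0.289), and DESeq2 and limma-voom called 0 as well. At an unadjusted p under 0.05 there were 83 (14.9%), 34 higher (6.09%) and 49 lower (8.78%) on the high-fat diet relative to control. Without the skeletal muscle miRNAs in the table, which also changed the scaling, there were 23 higher and 65 lower. The split was 34 and 49 with RLE size factors, 38 and 38 with TMM without the 5 most abundant miRNAs, and 34 and 41 with library totals alone. Without single libraries this count of 83 ran from 47 (without control week 1 replicate 2) to 141 (without control week 1 replicate 4). It was 54 without control day 1 replicate 4 and 53 without control week 1 replicate 1.

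**Figure D5:**
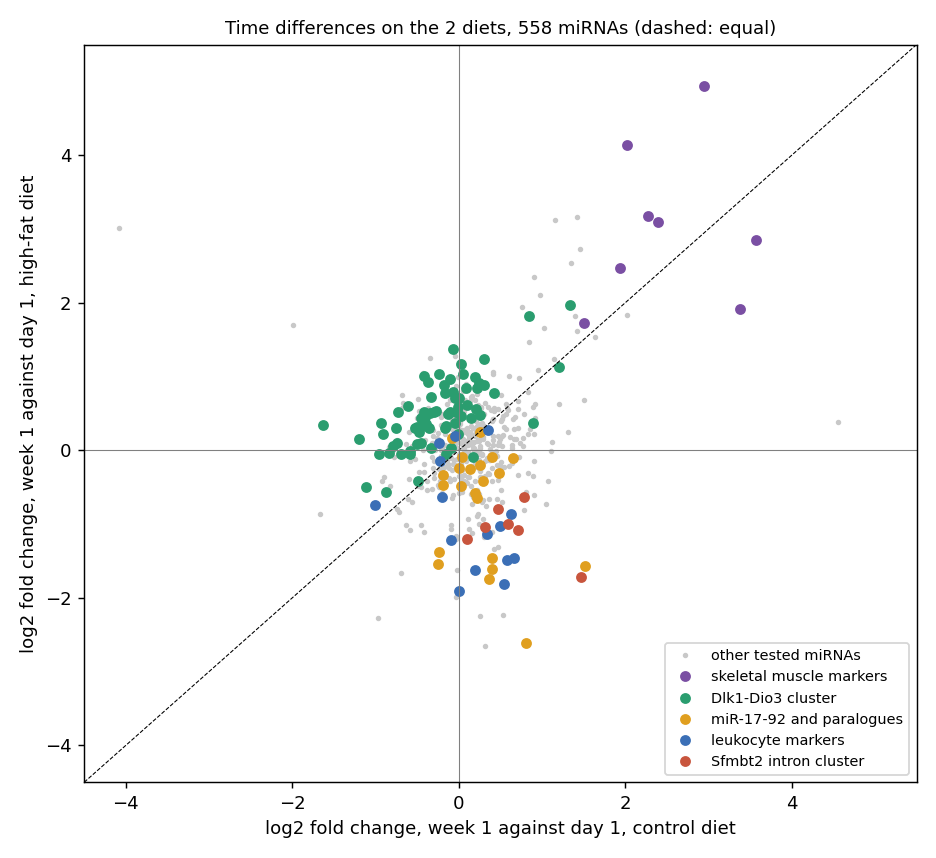
Log2 fold change of week 1 against day 1 on the control diet (x axis) and on the high-fat diet (y axis) for 558 miRNAs, with 5 lists coloured; the dashed line marks equal differences. The leukocyte, miR-17-92 and Sfmbt2 members lie mostly below the dashed line, the Dlk1-Dio3 members mostly above it, and the skeletal muscle members are above 0 on both diets.

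Side by side, some lists had different medians on the 2 diets and others had like ones. The let-7 family had a median log2 fold change of 0.22 on the high-fat and 0.20 on the control diet. The adipogenesis-promoting or adipocyte-enriched list had 0.12 and 0.08. Leukocyte arms had a median log2 fold change of -1.02 on the high-fat and 0.20 on the control diet. Of these arms, 7 of 15 had an unadjusted p under 0.05 for the difference between diets, all lower on the high-fat diet. Of all tested, 8.78% were lower at that p. The miR-17-92 list had -0.44 and 0.24, with 10 of 22 such arms, all lower. Sfmbt2 members had -1.04 and 0.59, with 5 of 7, all lower. The Dlk1-Dio3 cluster had 0.48 and -0.18, with 11 of 73, all higher (6.09% of all tested were higher at that p). Skeletal muscle arms had 2.97 and 2.33, with 0 of 8. Since no single miRNA passed for the difference, none of these is shown to be particular to the high-fat diet.

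The miRNAs with the smallest p for that difference were miR-425-3p, miR-136-5p, miR-369-3p, miR-363-5p and miR-224-5p (edgeR adjusted p 0.289 or above). MiR-425-3p had -0.34 on the high-fat and 0.71 on the control diet. MiR-136-5p, of the Dlk1-Dio3 cluster, had 0.35 and -1.63, and miR-369-3p of the same cluster 0.15 and -1.19. MiR-224-5p had 0.53 and -0.48. MiR-363-5p did not exceed the counting floor in 3 of the 4 high-fat week 1 libraries, so no fold is given.

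The high-fat libraries of week 3 lay between the earlier times for several of these miRNAs. MiR-142a-3p was at 6080 ± 1129 CPM (SD, n = 4) at week 3, between 3084 ± 2454 CPM at week 1 and 11601 ± 5010 CPM at day 1. MiR-20b-5p was at 66.6 ± 22.3 CPM at week 3, against 29.6 ± 21.0 and 98.9 ± 34.0 CPM. MiR-411-5p was at 653 ± 75.5 CPM, against 1055 ± 367 and 528 ± 208 CPM. The Dlk1-Dio3 list as a whole did not lie between the times. Its mean log2 CPM was 3.906 to 4.136 at week 3, within the range of 3.900 to 4.507 at day 1 and below that of 4.142 to 5.109 at week 1. Let-7d-5p stayed near its week 1 level, with 5230 ± 856 CPM against 5224 ± 1111 CPM at week 1. No test result for week 3 against week 1 is given here.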

How the data were processed

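Small RNA libraries from TRIzol-purified total RNA (NEBNext small RNA library preparation, per the labels) were counted by the authors with FastQC, Trim Galore, Bowtie2, featureCounts and the build mm10, per the submitters' processing notes. Tool versions and the handling of reads with several matches: not given in the sources used here. The deposited values are raw counts for 1907 miRNA names. Library groups came from the titles.

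Counts of all 24 libraries were fitted in 1 model of the 6 diet-by-time groups with edgeR 4.0.16 in R 4.3.3 (quasi-likelihood, robust, TMM). The filter filterByExpr (minimum count 10, minimum total 15) kept 558 names. Of all counts in the 8 libraries, 0.018% fell on the 1349 other names. Adjusted p-values are Benjamini-Hochberg over all 558. Fold changes are log2 with SE, list levels are mean log2 CPM with a prior count of 2, and lists got no test. DESeq2 1.42.0 and limma 3.58.1 were alternatives. No 2 libraries of a group agreed within sampling noise by chi-square tests.

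The members, lists and rules were chosen with earlier results of these data known. The text names the 5 miRNAs with the smallest p in each direction and for the diet difference, the 10 most abundant and the 2 most abundant of a list; others, such as those called by both alternative tools, cluster and seed mates, were chosen after their values were seen. On simulated data for this contrast (549 miRNAs) the edgeR fit recovered 69.1% of 97 2-fold and 91% of 100 4-fold changes with 5 false calls. The simulated miRNAs varied independently of one another, without the shared differences between libraries seen in the real counts. These shares therefore do not tell how many real changes of such size the test would find. Sequences and positions are from RefSeq and GENCODE on GRCm38.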

Additional observations from a re-analysis of the deposited data

Results flagged for a closer look

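Values of 174 groups of 4 libraries (named miRNAs, list levels, totals and detected miRNAs at day 1 and week 1 on the high-fat diet) were searched for a library far from the other 3. By chance about 1 in 20 groups, 8.7 here, would be found, and 6 were found, 3 of them in week 1 replicate 2. MiR-20a-3p was at 2.45 CPM in day 1 replicate 1, where the other 3 libraries had 4.72 to 4.95 CPM, and at 0.853 CPM in week 1 replicate 2, where the others had 1.63 to 1.695 CPM. MiR-92a-3p was at 3030 CPM in day 1 replicate 2, below 3725 to 3831 CPM in the others. MiR-1a-3p was at 65024 CPM in week 1 replicate 2, with 56.8 to 6592 CPM in the others. The mean log2 CPM of the adipocyte markers was 8.90 in week 1 replicate 3, above 8.49 to 8.55, and that of the endothelial markers was 8.15 in week 1 replicate 2, below 9.41 to 9.50.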

How the results depend on the processing

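EdgeR called 0 miRNAs between week 1 and day 1 under RLE size factors, library totals, TMM without the 5 most abundant miRNAs, both other filters, covariates, the 8 libraries alone and without the skeletal muscle miRNAs, a setting added after seeing the data that moved the median of all tested from 0.08 to -0.03. DESeq2 called 32 and limma-voom 39. With single libraries left out, edgeR called 0 to 4, the 4 without week 1 replicate 2. The 115 miRNAs at an unadjusted p under 0.05 were 74 without day 1 replicate 3, 69 without week 1 replicate 3 and 31 with the covariates. With the replicate number as a block, edgeR called 0 (smallest adjusted p 0.112, 118 at an unadjusted p under 0.05). Same-numbered libraries of day 1 and week 1 correlated at -0.56 to -0.32 after removal of group means, and differently numbered ones at -0.46 to 0.67. Differences shared by many miRNAs weigh on these values, so they do not settle whether the numbers pair libraries. The test of the difference between the diets called 0 in every setting run, and its 83 miRNAs at an unadjusted p under 0.05 were 138 with limma-voom and 17 with the covariates.

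The difference in log10 total ran from -0.128 to 0.013 and that in detected miRNAs from -33.3 to 20.7 with single libraries left out; the latter was 2 with 3 or more counts and 7.75 after thinning to the smallest total. None of these passed the exact permutation test.

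Signs changed for some named miRNAs. With the marker covariates, let-7i-5p had 0.063, let-7g-5p 0.15, miR-25-3p 0.063, miR-92a-3p 0.29, miR-467e-5p 0.10, miR-669c-5p 0.49, miR-20a-5p 0.19, miR-106a-5p 0.076, miR-106b-5p 0.23, miR-93-5p 0.16, miR-381-3p -0.42, miR-379-5p -0.19, miR-136-5p -0.18 and miR-369-3p -0.27. The sign of miR-363-5p changed there too, but no value is given because of the counting floor. With limma-voom, let-7i-5p had 0.014 and miR-369-3p -0.071, and without the skeletal muscle miRNAs miR-10b-5p had -0.036. With single libraries left out, the ranges that crossed 0 were -0.16 to 0.014 for let-7i-5p, -0.035 to 0.076 for miR-10b-5p, -0.016 to 0.26 for miR-126a-3p and -0.060 to 0.51 for miR-136-5p. The same held for miR-203-3p (-0.12 to 1.11), miR-369-3p (-0.21 to 0.30) and miR-451a (-0.082 to 0.37). Apart from the covariates, which take up leukocyte and muscle differences by construction, the cause was not tested. The depth of 1.99 to 5.28 M counts leaves miRNAs of a few CPM, such as miR-20a-3p and miR-488-3p, near the counting floor.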
